A study of Mus musculus with 2 samples.

Results

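The 10 genes described here, *Atf4*, *Ddit3*, *Trib3*, *Chac1*, *Asns*, *Nupr1*, *Sesn2*, *Ddit4*, *Atf3* and *Ppp1r15a*, belong to the integrated stress response. They were chosen by name with earlier results of these data known, and all 10 were found among the 31053 genes counted in both single-cell RNA-seq libraries. One library was made from feeder-free parental E14 mouse embryonic stem cells (WT). The other carries the label S1/5 dKO, for a double knockout of *Smad1* and *Smad5* that was made in the E14 line with CRISPR-Cas9. Both were kept on gelatin in medium with 15% fetal bovine serum and 1000 U/ml LIF, with no stressor added. The question was whether the 10 genes rise in the same cells as *Hspa5* and *Derl3*, the genes that mark a small population of endoplasmic reticulum (ER) cells in this culture. Which knockout clone was sequenced is not stated. Levels are given as CPM, the unique molecular identifiers (UMIs) of a gene per 1000000 UMIs. *Smad5* mRNA went against the label, at 9.09 CPM compared with 6.05 in WT, whereas *Smad1* was at 9.17 compared with 13.4. The *Smad1* and *Smad5* counts do not show whether an edited transcript is functional, and the sample labelled S1/5 dKO is therefore called the library labelled S1/5 dKO, or the dKO-labelled library.

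In the integrated stress response, kinases that sense ER stress, amino acid shortage, viral RNA or haem deficiency phosphorylate the initiation factor eIF2. Most translation is then reduced, whereas translation of the *Atf4* mRNA increases, and ATF4 protein switches on genes for amino acid supply, redox balance and cell fate. *Hspa5* encodes the ER chaperone BiP and *Derl3* a protein that helps to move misfolded proteins out of the ER, and both are classical targets of the ATF6 and XBP1 arms of the unfolded protein response. The PERK kinase connects ER stress to ATF4, and the remaining kinases reach ATF4 without ER stress. ATF4 is controlled largely at translation, so that its mRNA is not a measure of its protein.

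ATF4 and the ER arms are known to read different DNA elements, and the promoters of the 10 genes, *Hspa5* and *Derl3* were searched for both. All 12 genes matched the RefSeq promoter table (GRCm38.p6, from 250 bases before to 50 bases after each start). The C/EBP-ATF element, searched as TGATGNAA on both strands, was present in 5 of the 10 promoters (*Trib3*, *Chac1*, *Asns*, *Nupr1* and *Atf3*) and in 3.97% of all 32851 promoters. The ER stress element, searched as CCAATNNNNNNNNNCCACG on both strands, was present in none of the 10. It was present in both *Hspa5* and *Derl3*, compared with 0.119% of all promoters. The 2 patterns did not overlap in any of these promoters. The 30 bases around each match are shown from 5′ to 3′ on the strand of the gene, with the matched element in capitals.
Nupr1, chr7:126625562-126625591, minus strand: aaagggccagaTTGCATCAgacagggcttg
Chac1, chr2:119351038-119351067, plus strand: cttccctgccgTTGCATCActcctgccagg
Atf3, chr1:191183425-191183454, minus strand: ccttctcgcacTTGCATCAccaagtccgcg
Asns, chr6:7693214-7693243, minus strand: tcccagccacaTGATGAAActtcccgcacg
Trib3, chr2:152344028-152344057, minus strand: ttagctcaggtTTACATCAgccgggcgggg
Hspa5, chr2:34772020-34772049, plus strand: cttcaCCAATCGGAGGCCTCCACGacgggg
Derl3, chr10:75893237-75893266, plus strand: tctacCGTGGGACTTCCCCATTGGctagcc

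The same 8 letters, TTGCATCA, were found in *Nupr1*, *Chac1* and *Atf3*. They began 110, 193 and 110 bases before the start, respectively. The *Asns* element began 23 bases before the start, and the *Trib3* element 14 bases after it. In the GENCODE M21 annotation of the same build, the *Nupr1*, *Asns* and *Hspa5* windows lie in untranslated exon sequence of a longer transcript of the same gene, the *Atf3* window lies in an intron, and the *Chac1* and *Derl3* windows lie upstream of the gene. The last 5 bases of the *Trib3* window, as printed, are in annotated untranslated sequence. *Atf4*, *Ddit3*, *Sesn2*, *Ddit4* and *Ppp1r15a* held neither pattern in these windows, which says only that the letters are not there.

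After removal of barcodes with fewer than 1000 detected genes or more than 5% mitochondrial UMIs, 2236 WT cells and 2910 dKO-labelled cells were kept, with medians of 38662 and 34548.5 UMIs per cell. No cell barcode was shared between the libraries. The pluripotency gene *Pou5f1* was at 1316 and 1292 CPM. In the cells outside the *Hspa5* and *Derl3* classes described below, the endoderm, fibroblast and 2-cell-like (2C) marker lists each summed to at most 2.95 CPM. Each condition had 1 library, so no test between conditions was possible, and every interval given is an exact 95% interval for counting error only. A gene was called different where its level differed at least 2-fold and it had at least 200 UMIs in the cells compared.

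Over all cells, none of the 10 genes differed 2-fold between the libraries, and 0.537% of the 11349 genes with at least 200 UMIs did. The level of *Atf4*, the transcription factor, was 103 CPM in WT (100.6 to 104.6) and 136 in the dKO-labelled library (133.6 to 138), a log2 ratio of 0.40 (0.37 to 0.44). That ratio was above the 95th percentile of all genes, 0.30. *Sesn2*, a leucine sensor that restrains mTORC1, was at 21.9 in WT and 17.0 in the dKO-labelled library, a log2 ratio of -0.37 (-0.46 to -0.28), below the 5th percentile of -0.34. *Atf3*, a repressor of the ATF/CREB family that is induced by many stresses, had the lowest ratio, -0.67 (-1.07 to -0.28), on 132 and 94 UMIs.

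The other 7 genes had log2 ratios from -0.10 (*Ddit4*) to 0.20 (*Nupr1*). The median ratio of the 10 genes was 0.057 compared with -0.005 for all genes, and 6 were above 0. The WT levels of these 7 genes, in CPM, ranged from 2.05 for *Chac1* to 105 for *Asns*. How evenly the 3′ kit captures different genes was not tested, so these levels give no exact ranking of the genes by abundance.

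**Figure D1:**
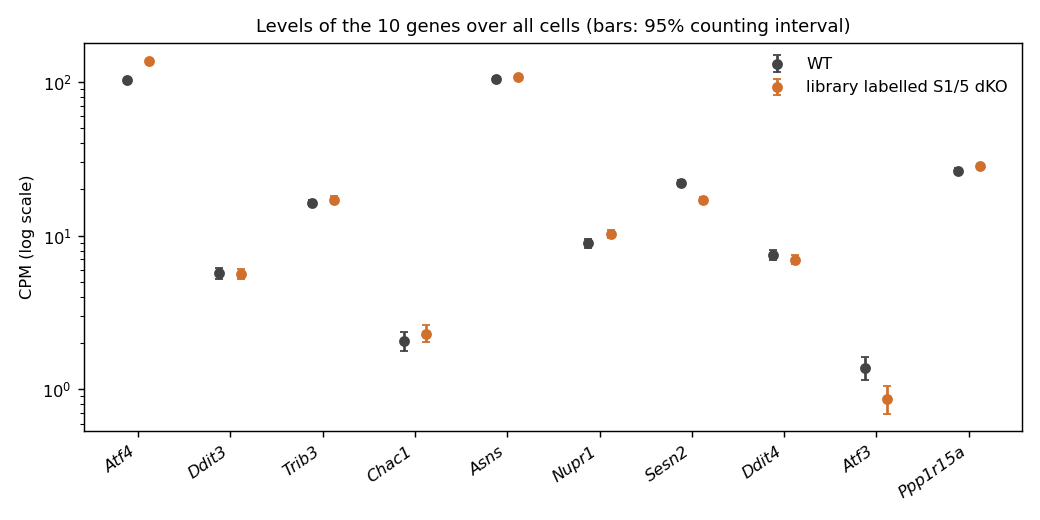
Level of each gene in CPM over all cells of a library (log scale), with points for WT (grey) and for the dKO-labelled library (orange) and bars for the exact 95% counting interval. The points of the 2 libraries lie close together for most genes, with *Atf4* higher (136 against 103) and *Sesn2* and *Atf3* lower in the dKO-labelled library.

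Most of the 10 genes were sparse, so that a cell without a UMI is not a cell without the transcript. After each cell was thinned to 10000 UMIs, *Atf4* was detected in 54.5% of WT cells and *Asns* in 59.4%, whereas *Nupr1* was detected in 7.39%, *Ddit3* in 5.02%, *Chac1* in 1.96% and *Atf3* in 0.912%. The unthinned shares were 85.8%, 93.2%, 19.6%, 19.7%, 6.89% and 4.2%, respectively. Barcodes with 10 to 100 UMIs, which were taken to hold mostly free RNA, also contained these transcripts, at 114.5 CPM for *Atf4* and 6.80 for *Nupr1* in WT, close to their levels in cells. In the dKO-labelled library *Nupr1* was at 16.85 there (33 UMIs), above the 10.25 in cells. WT *Ddit3* was also higher there, at 9.07 (16 UMIs) compared with 5.68, and WT *Trib3* was lower, at 10.2 compared with 16.3. A single UMI in a cell was therefore not read as expression, and the levels below are sums over groups of cells. The counts of cells with a UMI and the score per cell given below do rest on single UMIs.

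Cells were classed within each library by *Hspa5* and *Derl3*. A cell was *Hspa5*-high if it was in the top 5% of its library by *Hspa5* UMIs per 10000 UMIs, and *Derl3*-positive if it held at least 2 *Derl3* UMIs. Only cells with at least 10000 UMIs were classed, which left 2193 WT cells and 2843 dKO-labelled cells and left out 43 and 67 shallower ones. The *Hspa5* cutoff was 5.18 per 10000 in WT, with cells at 5.17 just outside and 5.20 just inside, and 5.12 in the dKO-labelled library. Of the 110 *Hspa5*-high WT cells, 28 were also *Derl3*-positive (25.5%, 17.6 to 34.7), compared with 2.64% of the other WT cells. Of the 143 *Hspa5*-high dKO-labelled cells, 15 were *Derl3*-positive (10.5%, 5.99 to 16.7), compared with 2.30% of the other cells. These 28 and 15 cells, the *Hspa5*-high *Derl3*-positive cells, were compared with the 2028 and 2638 cells that met neither criterion.

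In the *Hspa5*-high *Derl3*-positive cells the folds of the 10 genes ranged widely. *Nupr1* was more than 10-fold higher in both libraries. *Atf4*, *Asns* and *Trib3* were 1.36 to 2.11 times as high, with every interval above 1, and *Ddit3* was 3.8 and 2.35 times as high, with an interval that included 1 in the dKO-labelled library. *Ddit4*, *Atf3* and *Ppp1r15a* had intervals that included 1 in both libraries, as had *Sesn2* in the dKO-labelled library. *Chac1* was higher in WT only on 12 UMIs, and had 2 UMIs in the dKO-labelled library. Summed over the 10 genes, the level was 597 CPM compared with 289 in WT, and 627 compared with 327 in the dKO-labelled library.

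*Nupr1* encodes a small chromatin-associated stress protein that is induced by ATF4. In WT it was at 90.8 CPM (75.1 to 109) in *Hspa5*-high *Derl3*-positive cells and 6.42 (5.90 to 6.97) in cells of neither class, a fold of 14.2 (11.5 to 17.3). In the dKO-labelled library it was at 114.6 (88.3 to 146.4) and 8.83 (8.26 to 9.42), a fold of 13.0 (9.92 to 16.8), or 7.92 where 1 *Derl3* UMI was enough for a *Derl3*-positive cell. By the smaller of its folds in the libraries, *Nupr1* was second among the 9946 genes with at least 200 UMIs in each library, after *Derl3*, which the choice of cells had used, and it was followed by *Patl2* and *Serpinb6c* at 5.84 and 5.33.

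The rise of *Nupr1* was not in every cell. In the WT *Hspa5*-high *Derl3*-positive cells the *Nupr1* level per 10000 UMIs ran from 0 through a median of 0.817 to 3.70, and 19 of 28 cells held a UMI, compared with 18.2% of the cells of neither class. In the dKO-labelled library it ran from 0 through 0.836 to 5.57, and 10 of 15 cells held a UMI, compared with 22.3%. The ranges overlapped, since single cells of neither class reached 1.79 and 3.45. No one cell carried the WT level, as the highest held 17.2% of the *Nupr1* UMIs of its class, whereas 1 dKO-labelled cell held 32.8%.

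*Atf4* and *Asns*, which encodes the asparagine synthetase, were the genes with the most UMIs in these cells. *Atf4* was at 184 CPM compared with 100.4 in WT, a fold of 1.83 (1.60 to 2.09), and at 184.5 compared with 135.5 in the dKO-labelled library, a fold of 1.36 (1.11 to 1.65). The *Atf4* levels of the *Hspa5*-high *Derl3*-positive cells thus lay within each other's counting interval, and those of the cells of neither class did not. *Asns* was at 189 compared with 102 in WT, a fold of 1.85 (1.62 to 2.10), and at 222 compared with 105.5 in the dKO-labelled library, a fold of 2.11 (1.75 to 2.51). Per WT cell, *Asns* ran from 0.349 through a median of 1.75 to 5.26 per 10000, with a UMI in all 28 cells, and cells of neither class had a median of 0.874 and reached 5.12.

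*Ddit3* encodes CHOP, a transcription factor that ties prolonged stress to apoptosis, and *Trib3* a pseudokinase that CHOP and ATF4 induce. *Ddit3* was 3.8 times as high in WT (2.43 to 5.68, on 25 UMIs in 11 of 28 cells) and 2.35 times in the dKO-labelled library, where 7 UMIs left an interval of 0.941 to 4.88 that includes 1. With classes taken from thinned cells, the WT fold of *Ddit3* was 2.31. In the dKO-labelled library its fold was 4.15 with at least 3 *Derl3* UMIs, which left 6 cells, and 1.85 without the cell with the most *Ddit3* UMIs. *Trib3* was 1.97 times as high in WT (1.40 to 2.70) and 2.10 times in the dKO-labelled library (1.28 to 3.25), where at least 1 *Derl3* UMI in place of 2 gave 1.28. *Chac1* encodes an enzyme that degrades glutathione. It was 5.29 times as high in WT (2.67 to 9.5, in 10 of 28 cells), but with 197 UMIs over all WT cells it was below the minimum for a call, and its fold ran from 3.37 to 8.27 over the alternative definitions of the cells. *Ddit3* shares its locus with an antisense neighbour, *Mars*, and with a same-strand model of its upstream reading frame, so that its count is less certain than the others. *Sesn2* and *Ppp1r15a* overlap *Gm12981* and *Tulp2*, respectively.

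*Sesn2* was 1.48 times as high in WT (1.06 to 2.02) and 1.27 times in the dKO-labelled library (0.654 to 2.22). *Ppp1r15a* encodes GADD34, the phosphatase subunit that reverses eIF2 phosphorylation. Its folds were 1.22 (0.869 to 1.65) and 0.895 (0.489 to 1.51). *Ddit4*, an inhibitor of mTORC1, was at 0.952 (0.433 to 1.82) and 1.02 (0.278 to 2.63), on 9 and 4 UMIs. *Atf3* had 2 UMIs in the 28 WT cells and 0 in the 15 dKO-labelled cells, and 3 UMIs, the limit that a count of 0 allows, correspond to 5.37 CPM there. The WT interval of *Ddit4* did not reach a 2-fold rise, whereas that of the dKO-labelled library did. The intervals of *Atf3* reached 4.57 in WT and 7.47 in the dKO-labelled library. At this depth a smaller change of *Ddit4*, or a change of *Atf3*, was not detectable in these cells.

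With the 200-UMI minimum, 2 of 8 members were called higher in WT (*Ddit3* and *Nupr1*), compared with 2.69% of 10018 genes. In the dKO-labelled library 4 of 9 were called (*Ddit3*, *Trib3*, *Asns* and *Nupr1*), compared with 6.42% of 10208 genes. None of the members tested was called lower, compared with 5.03% and 8.95% of all genes. The median log2 fold of the members tested was 0.88 in WT and 0.63 in the dKO-labelled library, compared with 0.01 and 0.02 for all genes. *Atf4*, *Asns* and *Trib3* lay near the 2-fold line, so the count itself shifted from 2 to 5 and from 4 to 1 with the definition of the cells.

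**Figure D2:**
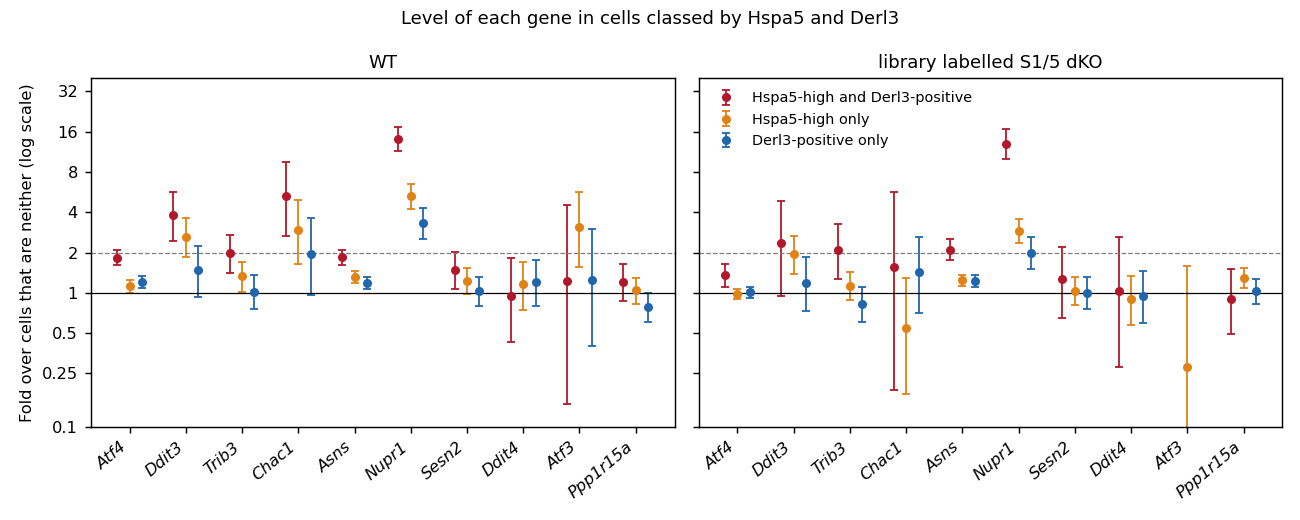
Fold of each gene over the cells of neither class (log scale), with 1 panel per library and points for *Hspa5*-high *Derl3*-positive cells (red), *Hspa5*-high only (orange) and *Derl3*-positive only (blue). Bars are exact 95% counting intervals, the lines mark 1-fold and 2-fold, points at 0 are not drawn, and the lower bar of *Atf3* at the right runs off the axis; *Nupr1* stands highest in both panels, at 14.2 and 13.0.

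In cells that met 1 criterion, *Nupr1*, *Ddit3* and *Asns* had smaller folds. In *Hspa5*-high cells without *Derl3* (82 WT cells and 128 dKO-labelled cells), *Nupr1* was 5.29 (4.24 to 6.53) and 2.91 (2.35 to 3.58) times as high as in cells of neither class. *Ddit3* was 2.62 (1.86 to 3.62) and 1.94 (1.37 to 2.66) times as high. These were the called members, 2 of 8 in WT and, with *Nupr1* alone, 1 of 9 in the dKO-labelled library, compared with 1.44% and 0.549% of all genes. *Asns* was at 1.31 and 1.24, with both intervals above 1. *Atf3*, below the minimum for a call, had 12 UMIs in the 82 WT cells, a fold of 3.12 (1.57 to 5.67), and 58.3% of them were in 1 cell.

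In *Derl3*-positive cells that were not *Hspa5*-high (55 and 62 cells), *Nupr1* was 3.32 (2.54 to 4.28) and 1.99 (1.5 to 2.60) times as high. It was the 1 member of 8 called in WT, and 0 of 9 were called in the dKO-labelled library, compared with 0.349% and 0.402% of all genes. Thus the *Nupr1* level was highest where both criteria were met, and its intervals there did not overlap those of either single class. Depth differed among the classes, with medians of 41001.5, 36089, 49493 and 38998.5 UMIs in WT for both, *Hspa5* only, *Derl3* only and neither and of 37723, 28434, 44568.5 and 35132.5 in the dKO-labelled library, and its part in the result was not tested. Single cells also brought lineage markers into these classes. In WT, endoderm markers summed to 19.1 CPM in *Hspa5* only (48 of 58 UMIs in 1 cell) and 2C markers to 40.4 in *Derl3* only (126 of 127). In the dKO-labelled library, 2C markers summed to 42.6 in *Hspa5* only and 34.2 in *Derl3* only, and endoderm markers to 17.0 in *Derl3* only. The folds of these classes were not recomputed without such cells.

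Along the whole *Hspa5* range, *Nupr1* and *Ddit3* were highest in the top cells. WT *Nupr1* was at 6.10 CPM in the lower 50% of cells by *Hspa5*, 6.53 between the 50th and the 80th percentile, 10.9 up to the 95th and 50.8 in the top 5%, and the third of these was already 1.79 times the first (1.46 to 2.19). In the dKO-labelled library the same bins held 9.16, 8.33, 10.5 and 36.7. *Ddit3* was at 5.17, 5.13, 5.76 and 15.3 in WT and at 5.35, 5.08, 6.03 and 10.6 in the dKO-labelled library.

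Between the top 5% and the lower 50%, *Nupr1* differed 8.33-fold and *Ddit3* 2.96-fold in WT, and *Nupr1* 4.0-fold in the dKO-labelled library, the members called higher, compared with 1.62% and 1.06% of all genes. *Atf4* was 1.30 times as high in the top WT cells (1.19 to 1.42) and 0.970 times in the dKO-labelled library (0.893 to 1.05). *Chac1* went opposite ways in the libraries, 3.13 times as high in the top WT cells (1.98 to 4.8) and 0.50 times in the dKO-labelled library, where 7 UMIs gave an interval of 0.198 to 1.05. The latter was the 1 call of a lower level, compared with 0.549% of all genes in WT and 0.529% in the dKO-labelled library. Over the bins, *Chac1* was at 3.10, 1.55, 1.40 and 1.55 CPM in the dKO-labelled library, already lower in the second bin and not particular to the top cells. In WT it was at 2.07, 1.53, 1.67 and 6.50.

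**Figure D3:**
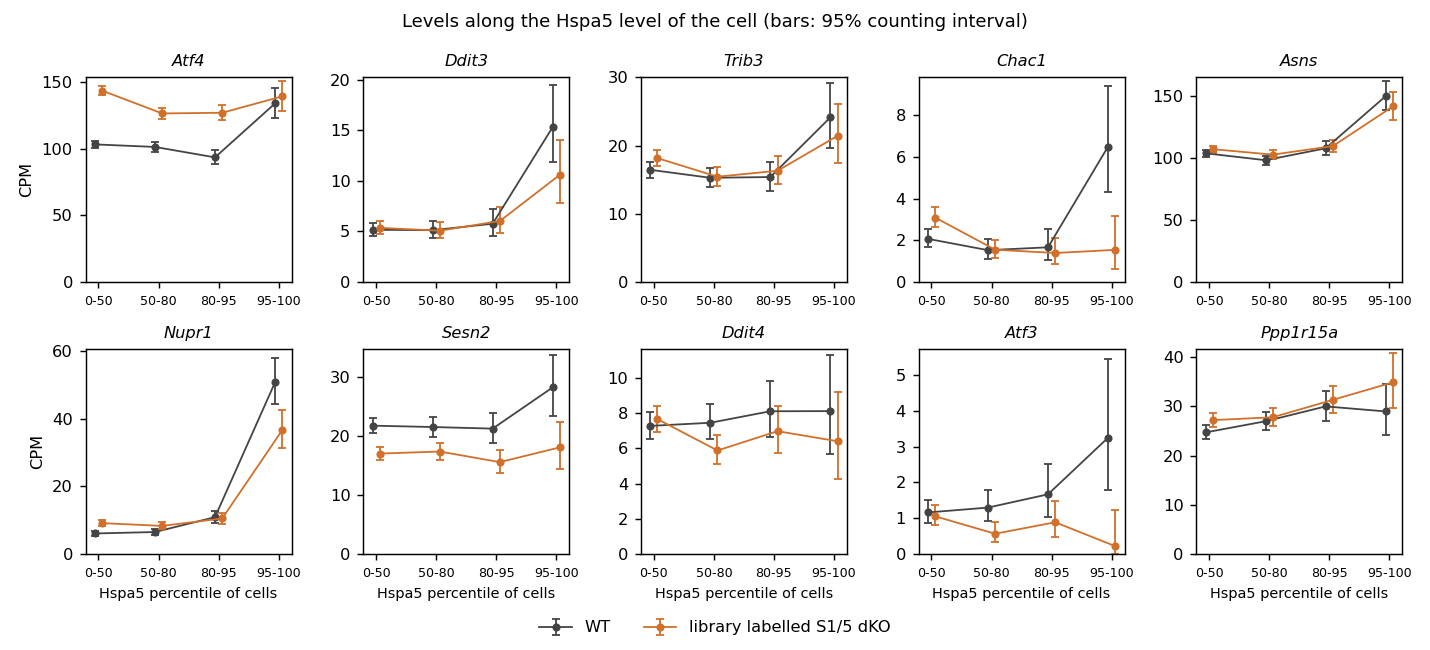
CPM of each gene (linear axes from 0) in 4 bins of cells ordered by the *Hspa5* level of the cell, for WT (grey) and the dKO-labelled library (orange), with exact 95% counting intervals. *Nupr1* stays between 6.10 and 10.9 up to the 95th percentile and reaches 50.8 and 36.7 in the last bin, whereas *Ddit4*, *Sesn2* and *Ppp1r15a* stay between 0.767 and 1.30 times their level in the first bin.

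The other genes of the pathway were examined by list. Of 21 chaperones and degradation factors of the ATF6 and XBP1 arms that could be tested, 12 were at least 2-fold higher in the WT *Hspa5*-high *Derl3*-positive cells and 15 in the dKO-labelled library, compared with 2.69% and 6.42% of all genes, and their median log2 folds were 1.28 and 1.41. *Herpud1*, which organises ER-associated degradation, was 5.49 (4.33 to 6.87) and 4.98 (3.49 to 6.90) times as high, and *Sdf2l1*, a partner of BiP, 3.81 and 3.67 times. These genes share their known regulators with *Hspa5*, by which the cells were chosen.

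Of 14 amino acid and one-carbon genes, which ATF4 is known to drive, 4 in WT and 5 in the dKO-labelled library were at least 2-fold higher, compared with 2.69% and 6.42% of all genes, and 14 and 13 were above 1. Of all genes tested, 5136 of 10018 and 5272 of 10208 were above 1. *Phgdh*, the entry enzyme of serine synthesis, was 2.44 (2.15 to 2.76) and 1.76 (1.41 to 2.18) times as high. *Aldh18a1*, of proline synthesis, was 3.66 (2.29 to 5.56) and 2.66 (1.14 to 5.28) times as high. *Slc7a11*, the cystine transporter, was not counted in either group of *Hspa5*-high *Derl3*-positive cells, and its 14 and 12 UMIs in the cells of neither class were too few for a comparison.

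The aminoacyl-tRNA synthetases, which charge tRNAs with amino acids, had small folds in 1 direction, with 12 of 12 in WT and 11 of 12 in the dKO-labelled library above 1 and median log2 folds of 0.59 and 0.55. Of all genes tested, 5136 of 10018 in WT and 5272 of 10208 in the dKO-labelled library were above 1. *Sars* was 2.08 (1.80 to 2.38) and 1.93 (1.56 to 2.37) times as high and *Nars* 1.91 and 1.88 times, and *Sars* in WT was the only one called. Calls of a higher level made up 2.69% of all genes in WT and 6.42% in the dKO-labelled library. Among 8 other genes linked to ATF4, *Atf5* was 3.63 (2.83 to 4.59) and 1.95 (1.17 to 3.05) times as high and *Cebpb* 1.89 (1.28 to 2.68) and 3.93 (2.62 to 5.67) times, with 1 and 3 called higher, and *Gadd45a* was called lower in the dKO-labelled library on 3 UMIs. In that library 8.95% of all genes were called lower. *Eif2ak3*, which encodes PERK, was 1.37 (0.589 to 2.73) and 3.21 (1.38 to 6.37) times as high on 8 UMIs in each library. It was called in the dKO-labelled library alone, where 6.42% of all genes were called higher. No other of the 11 kinases, phosphatase subunits and exchange factors of eIF2 was called in either library. The median log2 folds of the 11 were 0.16 and -0.02.

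Lists for other stresses were compared in the same way. Of 10 p53 target genes tested, 0 in WT and 2 in the dKO-labelled library were at least 2-fold higher, compared with 2.69% and 6.42% of all genes, and the median log2 folds were -0.37 and -0.12. The 2 genes were *Cdkn1a* and *Sesn1*, at 2.05 and 2.63, on 35 and 6 UMIs, and in the same library *Zmat3* and *Perp* were called lower, at 0.497 and 0.386. Among all genes, 5.03% in WT and 8.95% in the dKO-labelled library were called lower. None of 4 hypoxia genes was called higher and 2 and 1 were called lower (medians of -0.81 and -0.68, or -0.55 with *Bnip3*, at 0 UMIs, set to its floor), and of 8 immediate early and heat shock genes 1 and 0 were called higher and 1 and 1 lower (medians of -0.14 and -0.09). The 8 pluripotency genes had medians of 0.13 and 0.22, with none called. Endoderm markers summed to 4.70 CPM compared with 2.95 in WT and to 7.17 compared with 2.80 in the dKO-labelled library, with at most 2 UMIs in a cell and 3 of 6 markers at 0 in each library. The 2C markers were all at 0 in *Hspa5*-high *Derl3*-positive cells, and the mitochondrial share was 1.87% and 2.00% compared with 1.70% and 1.84%.

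The same question was then asked from the side of the 10 genes. In thinned cells, at least 2 of *Ddit3*, *Trib3*, *Chac1* and *Nupr1* were detected together in 9 of 28 WT *Hspa5*-high *Derl3*-positive cells (32.1%, 15.9 to 52.4) compared with 2.52% of cells of neither class, and in 4 of 15 cells (26.7%, 7.79 to 55.1) compared with 2.92% in the dKO-labelled library. These 4 genes had the highest WT folds in the same cells, so that this count does not stand apart from those folds. Over all 10 genes, the median number detected per cell was 3.5 compared with 2 in WT and 3 compared with 2 in the dKO-labelled library. A score was formed as the mean over the 10 genes of the standardised log count in the thinned cell, and the top 5% of each library by the score were called member-high. Of the 110 member-high WT cells, 23 were *Hspa5*-high (20.9%, 13.7 to 29.7), compared with 5.02% of all WT cells, and with cells thinned to 5000 UMIs the share was 12.7%. Of the 143 in the dKO-labelled library, 18 were *Hspa5*-high (12.6%, 7.63 to 19.2), compared with 5.03%.

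By this score the overlap was partial. Of the *Hspa5*-high *Derl3*-positive cells, 11 of 28 (39.3%) and 6 of 15 (40%) were member-high, while 79.1% and 87.4% of member-high cells were not *Hspa5*-high. Without *Nupr1* in the score, the shares of member-high cells that were *Hspa5*-high became 16.4% and 7.69%, compared with 5.02% and 5.03% of all cells. No interval was computed for these 2 shares, so whether the 7.69% of the dKO-labelled library differs from the share of all cells was not tested. The score is a range and not a type, with 66 WT cells and 103 dKO-labelled cells within 0.1 of the cutoff. Because each gene was standardised, a UMI of a rare gene weighs more in it than a UMI of a common gene. Among member-high cells that were not *Hspa5*-high, *Atf3* was 15.3 and 15.8 times as high as in cells high by neither. *Chac1* was 12.2 and 10.1 times and *Atf4* 1.79 and 1.51 times as high there, and the score itself used these genes.

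**Figure D4:**
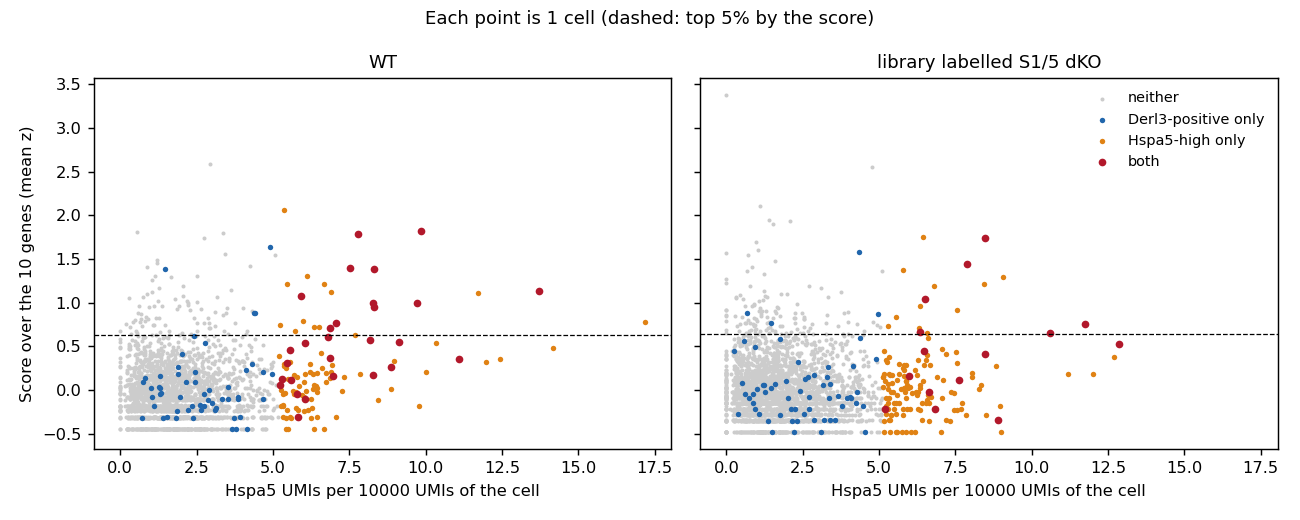
Score over the 10 genes (mean of standardised log counts) against *Hspa5* UMIs per 10000 UMIs for each cell, with 1 panel per library, colours for the class of the cell and a dashed line at the top 5% by the score. Red points, cells high in both *Hspa5* and *Derl3*, lie on both sides of the line (11 of 28 and 6 of 15 above it), and most cells above the line are grey.

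Across all thinned cells the rank correlations were small, also between *Hspa5* and *Derl3* themselves, at 0.094 in WT and 0.059 in the dKO-labelled library. Small values therefore do not show that the genes were unrelated. Spearman's rho with *Hspa5* ran from -0.045 (*Atf4*) to 0.071 (*Nupr1*) over 2193 WT cells and from -0.034 to 0.049 over 2843 dKO-labelled cells. With *Derl3* it ran from -0.013 (*Atf4*) to 0.099 (*Nupr1*) in WT and from -0.009 (*Ddit4*) to 0.061 (*Asns*) in the dKO-labelled library. Among the 45 pairs of members the median rho was 0.021 and 0.016 and the highest 0.104 (*Atf4* and *Nupr1*) and 0.096 (*Asns* and *Nupr1*). All cells of a library share its depth and free RNA, and such values in sparse counts are a description only. The non-member genes with the highest mean rho with the score were *Btg2*, *Chchd10*, *Phlda3*, *Mdm2* and *Malat1*, at 0.116 to 0.133 over 4475 genes. *Mdm2* and *Phlda3* are classical p53 targets, and *Btg2* is induced by p53.

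In the member-high cells that were not *Hspa5*-high, 10 of 10 p53 target genes were above 1 in both libraries, with median log2 folds of 0.53 and 0.31 compared with 0.01 and -0.01 for all genes. At least 2-fold higher, 2 and 0 of them were called, compared with 0.649% and 0.245% of all genes. Lists linked to ATF4 were likewise above 1, with 14 of 14 amino acid and one-carbon genes (medians of 0.25 and 0.26) and 8 of 8 other ATF4-linked genes (0.38 and 0.33) in both libraries, of which 1 each was called in WT. The 21 ATF6 and XBP1 arm genes had medians of 0.17 and 0.03 in these cells, with 20 and 12 of them above 1. *Herpud1* of that list lay above these medians, at 1.97 (1.55 to 2.47) and 1.78 (1.455 to 2.17) times as high. The list of p53 targets does not contain any of the 10 genes. *Sesn2*, *Ddit4* and *Atf3* are known to be induced by p53 as well as by ATF4.

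A comparison chosen after these values were seen therefore took the cells with the most UMIs of the p53 target list, at least 24 per 10000, which were 125 WT cells and 153 dKO-labelled cells. *Atf3* and *Ddit4*, for which no change was detectable in the *Hspa5*-high *Derl3*-positive cells, stood highest here. *Atf3* was 8.67 times as high as in the other cells in WT (5.80 to 12.7) and 7.65 times in the dKO-labelled library (4.59 to 12.3). *Ddit4* was 4.49 (3.68 to 5.44) and 3.88 (3.16 to 4.74) times as high, with a UMI in 52.8% compared with 19.8% of WT cells. The 39 WT *Atf3* UMIs came from 17 cells, with at most 7 in a cell. *Atf3* and *Ddit4* were the 2 members at least 2-fold higher in each library, *Atf3* below the minimum for a call, compared with 2.54% and 1.91% of all genes.

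*Sesn2* was 1.65 (1.39 to 1.94) and 1.94 (1.63 to 2.29) times as high in these cells and *Ddit3* 1.71 (1.22 to 2.34) and 1.74 (1.25 to 2.35) times. *Nupr1* was lower, at 0.441 (0.260 to 0.701) and 0.682 (0.470 to 0.959), a call in WT alone, compared with 0.918% of all genes there and 1.24% in the dKO-labelled library. *Hspa5* and *Derl3* were at 1.00 and 1.07 in WT and at 0.899 and 1.04 in the dKO-labelled library. The p53-list-high cells were shallower, with medians of 31413 and 28793 UMIs compared with 39378.5 and 35358 in the other cells, and the part of depth in these values was not tested. They included 0 of the 28 and 2 of the 15 *Hspa5*-high *Derl3*-positive cells.

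**Figure D5:**
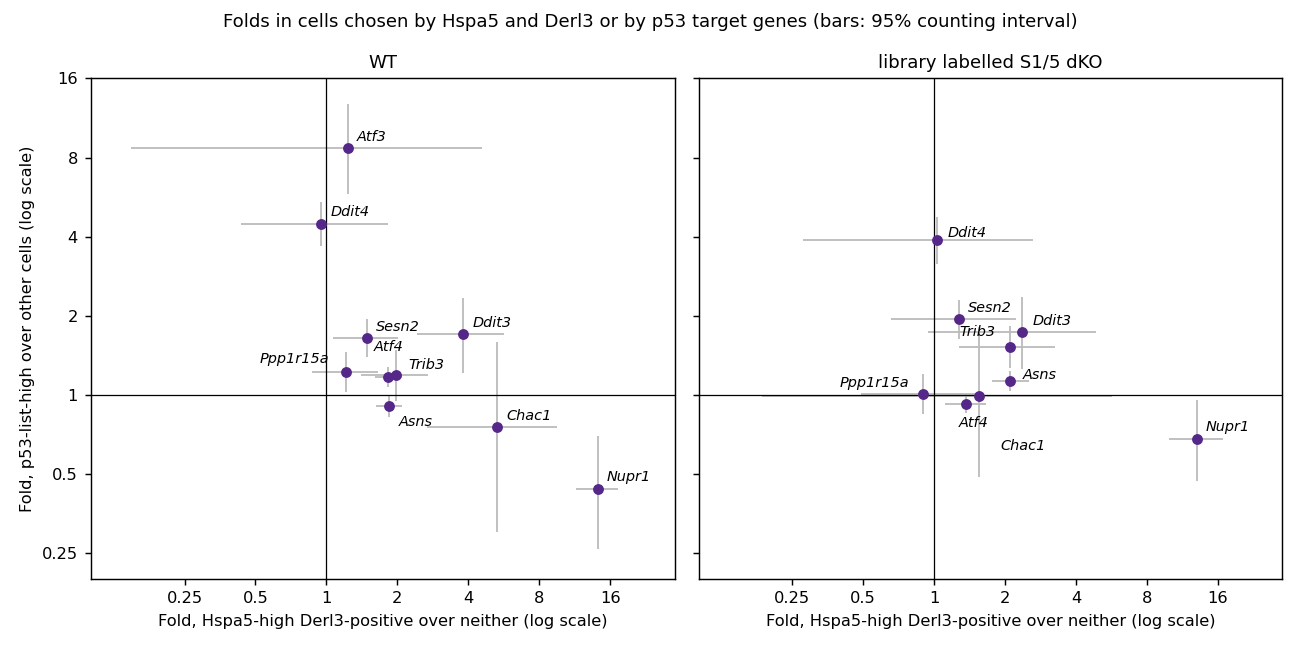
Fold of each gene in p53-list-high cells over other cells (vertical) against its fold in *Hspa5*-high *Derl3*-positive cells over cells of neither class (horizontal), both on log scales, with 1 panel per library and exact 95% counting intervals. *Nupr1* lies at the lower right of both panels (14.2 and 0.441 in WT) and *Ddit4* at the upper centre, and *Atf3* is drawn for WT alone because its horizontal value in the dKO-labelled library is 0.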

How the data were processed

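The authors aligned the reads of both 10x Chromium 3′ v3 libraries to mm10 with Cell Ranger 3.0.2, per the labels, and deposited UMI counts per gene and barcode for all barcodes, without normalization. The members and lists were chosen with earlier results of these data known. Cells were barcodes in which 1000 genes or more were detected and mitochondrial UMIs made up no more than 5%, as in the study, and no doublets were removed. UMIs were summed over the cells of a class and divided by the total of the class. Poisson, Clopper-Pearson and conditional binomial 95% intervals were computed, and the scripts were tested on simulated data. The floor for a count of 0 was 3 UMIs. Library totals were 100446187 and 113937221 UMIs. Per-cell scores used cells thinned at random to 10000 UMIs. The named genes were the 10 members, *Hspa5*, *Derl3*, the targeted genes, the listed genes, the 10 non-member genes with the highest smaller fold in *Hspa5*-high *Derl3*-positive cells (*Derl3*, *Patl2*, *Serpinb6c*, *Herpud1*, *Pga5*, *Gm867*, *S100a13*, *Camk2n1*, *Hspa5* and *Ly6a*) and the 5 most like the member score. Alternatives changed the scaling, the cutoffs, the thinning and the cell filters, and the comparison by p53 target genes was added after seeing the data. Python 3.11.15, numpy 2.4.6, scipy 1.17.1, pandas 2.3.3, matplotlib 3.10.9, R 4.3.3 and edgeR 4.0.16 (for TMM scaling only) were used. Promoter sequences came from RefSeq on GRCm38.p6, and gene models from GENCODE M21, which are of the build that the authors used.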

Additional observations from a re-analysis of the deposited data

Results flagged for a closer look

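Among the folds over cells of neither class with more than 3 UMIs of the gene in the class in each library, 9 lay on opposite sides of 1 in the libraries, and none of these differences was tested, since each library stands alone. *Atf3* was left out by this minimum, although it was above 1 in WT and below 1 in the dKO-labelled library in all 3 classes (on 1 UMI in *Hspa5*-high only cells and 0 UMIs in the other classes of the latter library). The widest of the 9 was *Chac1* in cells that were *Hspa5*-high only, at 2.97 in WT (1.66 to 4.97, on 16 UMIs) and 0.545 in the dKO-labelled library (0.175 to 1.29, on 5 UMIs). In the same class *Atf4* was at 1.12 and 0.981 and *Ddit4* at 1.16 and 0.900. In *Hspa5*-high *Derl3*-positive cells *Ddit4* was at 0.952 and 1.02, and *Ppp1r15a* at 1.22 and 0.895. In cells that were *Derl3*-positive only, *Trib3* was at 1.02 and 0.832, *Sesn2* at 1.03 and 1.00, *Ddit4* at 1.20 and 0.951, and *Ppp1r15a* at 0.782 and 1.03. Apart from *Chac1* and *Atf4* in the *Hspa5*-high only class, the 95% intervals of both libraries included 1.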

How the results depend on the processing

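No paired analysis was possible because each condition has 1 library. The count of members 2-fold apart between the libraries was 0 under each of the 8 alternatives, and each of the 80 recomputed log2 ratios moved by less than its interval. In *Hspa5*-high *Derl3*-positive WT cells, 2 members were called 2-fold higher, and 5 were called with *Hspa5* in the top 2%, with at least 3 *Derl3* UMIs, with the mean over cells in place of summed UMIs, and without cells over 2 times the median UMIs. In the dKO-labelled library, 4 were called, but 1 with *Hspa5* in the top 10%, 2 with at least 1 *Derl3* UMI, and 2 without the cell with the most UMIs of each member (an alternative added after seeing the data). *Nupr1* ranged from 10.1 to 18.8 times as high in WT and from 7.92 to 17.0 times in the dKO-labelled library, *Asns* from 1.73 to 2.46 and from 1.70 to 2.68, and *Atf4* from 1.5 to 2.34 and from 1.15 to 1.87. The folds on fewer UMIs ranged more widely, with *Ddit3* from 2.31 to 5.05 and from 1.85 to 4.15, *Trib3* from 1.82 to 2.86 and from 1.28 to 3.12, *Chac1* from 3.37 to 8.27 and from 0.818 to 2.21, *Ppp1r15a* from 0.776 to 1.22 and from 0.475 to 1.14, and *Ddit4* from 0.54 to 0.983 and from 0.538 to 1.3. The share of WT member-high cells that were *Hspa5*-high fell from 20.9% to 12.7% when cells were thinned to 5000 UMIs. The cause of these shifts was not tested. Classes of 28 and 15 cells limit what the sparse members (*Chac1*, *Atf3*, *Ddit4*) can show.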
